A study of Mus musculus with 6 samples.

Results

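The genes described here are 10 markers of liver sinusoidal endothelial cells, Stab1, Stab2, Lyve1, Clec4g, Fcgr2b, Pecam1, Cdh5, Kdr, Flt4 and Oit3, followed through liver tumors of wild-type and Nr2e3-/- mice. They were taken by gene symbol from a table of raw RNA-seq counts, and all 10 were found among its 24063 genes, each as 1 row. All 10 passed the filter on low counts that left 13572 genes for testing.

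The tumors were induced with the hepatocarcinogen diethylnitrosamine (DEN), injected intraperitoneally at 25 mg/kg into male C57BL/6 mice at 15 days of age (the study's methods give the WT strain as C57BL/6J). The WT group was 3 tumors of NR2E3+/+ mice and the Nr2e3-/- group was 3 tumors of mice lacking the nuclear receptor NR2E3, all collected at 24 weeks, and each mouse gave 1 library. Both groups had received DEN, no untreated or non-tumor liver was compared here, and the knockout is not described as restricted to endothelial cells. The study asked what loss of NR2E3 does in hepatocellular carcinoma, with Sp1 and Wnt/β-catenin signaling in view, and the comparison below asks how the sinusoidal endothelium of the tumors was represented in the RNA of each genotype.

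Sinusoids are the capillaries of the liver, and their endothelial cells have open pores and no organised basement membrane, so that plasma reaches the hepatocytes directly. The cells are among the strongest scavengers of the body and take up modified proteins, hyaluronan and immune complexes through receptors such as Stab1, Stab2, Lyve1 and Fcgr2b. They depend on vascular endothelial growth factor (VEGF), which in the liver comes largely from hepatocytes and is read by Kdr and its relatives. In chronic liver disease and in hepatocellular carcinoma sinusoidal endothelium is known to lose this specialised state, a process called capillarization. The markers are of differing specificity. Pecam1 and Cdh5 are found in endothelium of all kinds, Flt4 and Lyve1 are also lymphatic endothelial genes, and Fcgr2b is also made by B cells and macrophages.

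Sp1, the transcription factor that the study follows, binds GC boxes. In the study, NR2E3 depletion in HepG2 cells raised Sp1 recruitment to JAG1 and PPARD and raised their expression. The promoters shown here are those of the 3 markers with the most negative differences between Nr2e3-/- and WT tumors. They were thus chosen by their differences, and a part of Sp1 in these was not tested. The sequences are those of RefSeq on GRCm38.p6, which gave promoters for 6 of the 10 markers, and run 5′ to 3′ from 250 bases before the start site to 50 bases after it. Lyve1, Pecam1, Cdh5 and Oit3 had none, and Lyve1 was the marker with the largest difference between genotypes. Capitals mark the GC box GGGCGG on either strand, so that a box on the reverse strand reads CCGCCC. The Kdr promoter lies at chr5:75978406-75978705 on the minus strand, that of Flt4 at chr11:49609429-49609728 on the plus strand and that of Fcgr2b at chr1:170976022-170976321 on the minus strand.
Kdr: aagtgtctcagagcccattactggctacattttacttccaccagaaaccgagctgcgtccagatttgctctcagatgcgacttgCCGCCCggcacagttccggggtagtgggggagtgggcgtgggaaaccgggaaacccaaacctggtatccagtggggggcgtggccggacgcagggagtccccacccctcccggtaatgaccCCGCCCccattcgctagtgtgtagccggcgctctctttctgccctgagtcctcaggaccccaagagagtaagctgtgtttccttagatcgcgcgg
Flt4: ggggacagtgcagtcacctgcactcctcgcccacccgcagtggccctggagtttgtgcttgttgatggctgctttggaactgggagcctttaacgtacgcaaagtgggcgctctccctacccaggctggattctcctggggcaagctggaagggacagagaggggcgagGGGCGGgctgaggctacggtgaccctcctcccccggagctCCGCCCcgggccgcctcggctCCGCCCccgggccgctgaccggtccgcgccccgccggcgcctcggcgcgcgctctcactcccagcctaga
Fcgr2b: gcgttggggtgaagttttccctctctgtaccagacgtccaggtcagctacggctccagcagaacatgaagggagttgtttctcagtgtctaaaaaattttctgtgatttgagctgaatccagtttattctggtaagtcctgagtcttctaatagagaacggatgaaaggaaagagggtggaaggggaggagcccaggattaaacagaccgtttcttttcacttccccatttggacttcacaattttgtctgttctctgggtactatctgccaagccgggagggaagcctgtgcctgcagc
Kdr held 2 boxes on the reverse strand, whose first bases were at -166 and -45 with the start site at 0. Flt4 held 3, with 1 on the forward strand at -81 and the other two on the reverse strand at -41 and -20. These letters were not in the windows of Fcgr2b, Clec4g, Stab1 and Stab2. The Flt4 window was also the richest in G and C, at 70.3% with 26 CpG dinucleotides, against 60.7% and 19 for Kdr and 48.0% and 6 for Fcgr2b. A GC box of these letters was found in 35.7% of all 32851 mouse promoters of the same length, beside 2 of the 6 marker promoters. The letters CAGGAA, 1 form of the ETS site, were in 30.6% of all promoters and in 3 of the 6, those of Clec4g, Stab1 and Stab2. Other forms of the ETS site were not searched. A GATA site, AGATAA, was in 11.2% of all promoters and a TCF/LEF site, CTTTGA, in 16%, each in 0 of the 6, with both strands searched and no overlap between the motifs counted. These matches are a description of the letters only.

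Library totals ranged from 15376261 to 28690279 counts, and each marker had between 483 and 2532 counts in every library. Nr2e3 had 0 counts in all 6 libraries, which allows up to 0.105 to 0.195 counts per 1000000 (CPM) depending on the library, and the genotype labels could therefore not be checked on the deleted gene. Nr2e3-/- replicate 1 stood apart from the other two of its group. With all libraries edgeR called 13 genes, without this replicate 3022, and without any other single library 0 to 18. Its median position over those 3022 genes was 0.215 on a scale where 0 is the WT mean and 1 is the mean of Nr2e3-/- replicates 2 and 3, a description of genes chosen with those replicates. The value without it is given below for every marker, and the call without it for every other named gene whose call it changes. Hepatocyte RNA dominated the libraries, with albumin (Alb) at 84013 to 130236 normalized CPM, and in such bulk samples fewer cells of a type and less RNA per cell cannot be told apart. All 10 markers were nevertheless at 16.9 normalized CPM or more in every library, so endothelial RNA was present throughout.

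Of the 10 sinusoidal markers, Lyve1 was higher and Kdr and Fcgr2b were lower in Nr2e3-/- tumors at an unadjusted p under 0.05, and the other 7 were not past that threshold. Lyve1, the hyaluronan receptor, stood at 1.77-fold the WT level, and Kdr, the main signaling receptor for VEGF-A, at 0.653-fold. After Benjamini-Hochberg adjustment over all genes, edgeR's quasi-likelihood test called 0 of the 10, where it called 0.0958% of all genes tested. At an unadjusted p under 0.05 it passed 3 of 10 markers beside 21.5% of all genes, with 1 higher where the background was 11.8% and 2 lower where the background was 9.72%. These shares are near the background, so what follows describes single genes. DESeq2 called 2 of 10, Lyve1 and Kdr, at a background of 8.23%, and limma-voom with sample quality weights called 3, Lyve1, Kdr and Fcgr2b, at 17.4%. Without Nr2e3-/- replicate 1, edgeR called Lyve1, Kdr and Oit3, at a background of 21.8%.

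**Figure D1:**
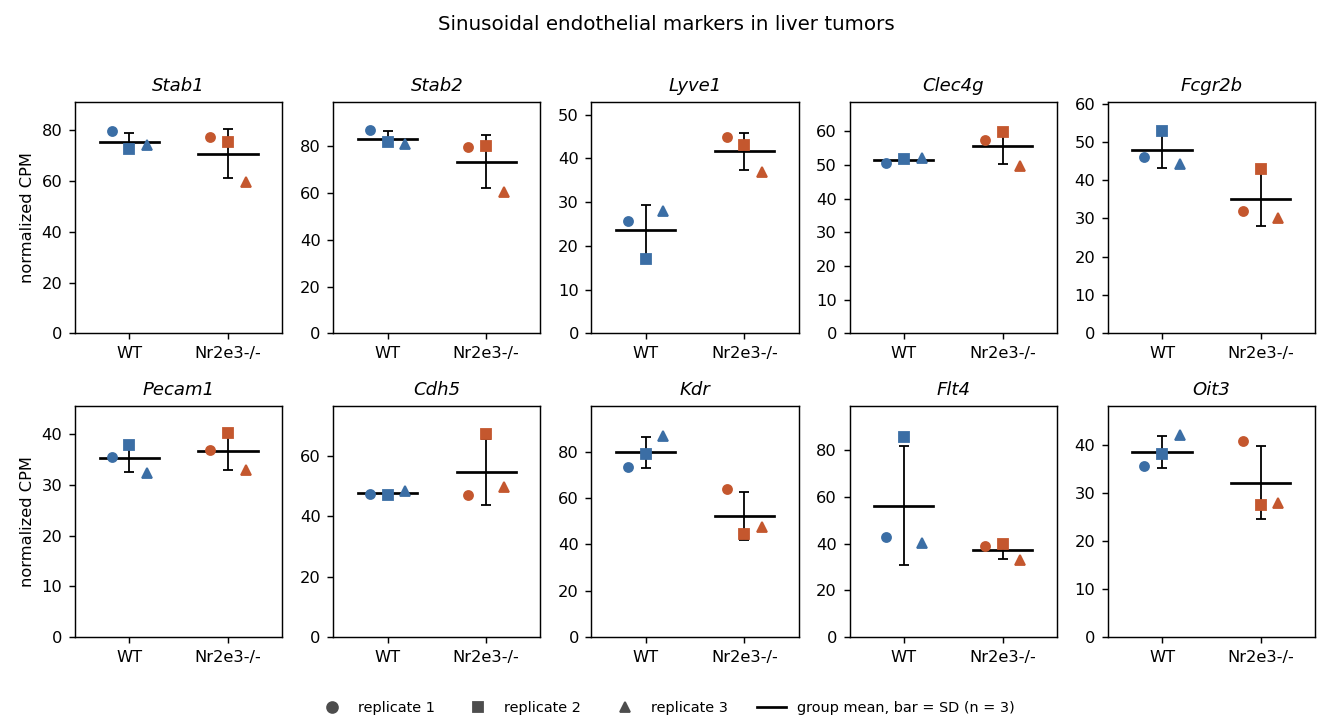
Level of each marker in every tumor, as normalized CPM (vertical axes from 0), with blue for WT and orange for Nr2e3-/-. Each symbol is 1 library, lines are group means and bars are SD (n = 3). Lyve1 lies higher in all 3 Nr2e3-/- tumors and Kdr and Fcgr2b lie lower, while Pecam1, Cdh5, Clec4g, Stab1 and Oit3 overlap.

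The scavenger receptors came first. Lyve1 (chr7:110850607-110863239, minus strand, GRCm38, 6 exon blocks) was at 25.6, 16.9 and 28.0 normalized CPM in WT tumors and at 45.0, 43.1 and 36.9 in Nr2e3-/- tumors. The groups did not overlap, and the lowest Nr2e3-/- tumor was above the highest WT tumor. Its group means were 23.5 ± 5.82 and 41.6 ± 4.23 CPM (SD, n = 3), a log2 difference of 0.82 ± 0.20 (SE, edgeR adjusted p = 0.111). The 95% interval of the fold ran from 1.29 to 2.44. DESeq2 gave an adjusted p of 0.00764 and limma-voom one of 0.0422. Without Nr2e3-/- replicate 1, which held the highest level of all 6 tumors, the log2 difference was 0.78 (edgeR adjusted p = 0.0456), and over all 13 alternative settings it ran from 0.64 to 0.97.

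Fcgr2b, the inhibitory IgG receptor through which sinusoidal endothelium clears small immune complexes (chr1:170958617-170976547, minus strand, 10 exon blocks), went the other way. Its level was 46.2, 52.8 and 44.3 normalized CPM in WT tumors and 32.0, 42.8 and 30.1 in Nr2e3-/- tumors. All Nr2e3-/- tumors were below all WT tumors, although replicate 2 came within 1.51 CPM of the lowest WT tumor. The log2 difference was -0.45 ± 0.16 (SE, edgeR adjusted p = 0.176), a fold of 0.733 with a 95% interval from 0.567 to 0.947. DESeq2 gave an adjusted p of 0.115 and limma-voom one of 0.0362, and without Nr2e3-/- replicate 1 the difference was -0.38 (edgeR adjusted p = 0.151).

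Since Fcgr2b is also a B cell gene, the B cell markers are given beside it. Of 4 measured, 3 were lower in Nr2e3-/- tumors at an unadjusted p under 0.05, beside 9.72% of all genes tested. These were Cd79a, Cd79b and Ms4a1, with log2 differences of -1.36, -1.56 and -1.49, and 0 passed after adjustment. Leaving out Nr2e3-/- replicate 1, edgeR called Cd79b and Ms4a1 lower. Their summed level was 4.07 to 4.65 normalized CPM in WT tumors and 1.46 to 2.71 in Nr2e3-/- tumors, with none of the 4 at 0 in all libraries. The mean level of Fcgr2b itself differed by 12.8 CPM. Levels of different genes do not give the share of Fcgr2b RNA that B cells held, and that share was not tested.

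Stab1 and Stab2, the giant stabilin receptors that remove modified lipoproteins, hyaluronan and collagen fragments from blood, differed little. Stab2 (chr10:86841198-87008025, minus strand, 69 exon blocks) was at 87.2, 81.9 and 81.0 normalized CPM in WT tumors and at 79.8, 80.2 and 60.4 in Nr2e3-/- tumors. All WT tumors were above all Nr2e3-/- tumors, but the gap between them was 0.785 CPM and the mean was set by replicate 3. Its log2 difference was -0.18 ± 0.13 (SE, edgeR adjusted p = 0.448), with a fold interval from 0.709 to 1.10, and -0.24 (adjusted p = 0.257 in edgeR) without Nr2e3-/- replicate 1. Stab1 (chr14:31139013-31168641, minus strand, 69 exon blocks) was at 79.6, 72.5 and 74.1 in WT tumors and at 77.3, 75.6 and 59.6 in Nr2e3-/- tumors, with overlapping groups. Its log2 difference was -0.091 ± 0.13 (edgeR adjusted p = 0.693), with a fold interval from 0.764 to 1.15, and it was -0.15 (edgeR adjusted p = 0.431) without Nr2e3-/- replicate 1 and 0.022 without replicate 3.

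Clec4g, the lectin LSECtin and a marker largely of sinusoidal endothelium within the liver (chr8:3707064-3720651, minus strand, 12 exon blocks), was at 50.5, 51.8 and 52.1 normalized CPM in WT tumors and at 57.5, 59.7 and 49.6 in Nr2e3-/- tumors. The WT tumors lay within 1.63 CPM of each other and the Nr2e3-/- tumors fell on both sides of them. A log2 difference of 0.11 ± 0.10 (SE, edgeR adjusted p = 0.547) was fitted, with a fold interval from 0.911 to 1.28, and one of 0.097 (edgeR adjusted p = 0.541) without Nr2e3-/- replicate 1. Of the 5 scavenger and clearance receptors together, 1 was higher and 1 lower at an unadjusted p under 0.05, and their summed level of 276 to 289 CPM in WT tumors lay within the range of 237 to 301 in Nr2e3-/- tumors.

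The junction genes showed little difference between genotypes. Pecam1, the adhesion molecule CD31 (chr11:106654217-106750628, minus strand, 17 exon blocks), was at 35.4, 37.8 and 32.4 normalized CPM in WT tumors and at 36.9, 40.2 and 32.9 in Nr2e3-/- tumors. The groups overlapped almost fully, with a log2 difference of 0.060 ± 0.12 (SE, edgeR adjusted p = 0.784) and a fold interval from 0.862 to 1.26, and 0.067 (edgeR adjusted p = 0.723) without Nr2e3-/- replicate 1. Cdh5, the VE-cadherin of endothelial junctions (chr8:104101625-104144511, plus strand, 12 exon blocks), was at 47.5, 47.1 and 48.5 in WT tumors and at 47.0, 67.3 and 49.8 in Nr2e3-/- tumors. A single library, replicate 2, stood above the rest. The log2 difference was 0.20 ± 0.15 (edgeR adjusted p = 0.453), with a fold interval from 0.902 to 1.46, and 0.31 (edgeR adjusted p = 0.152) without Nr2e3-/- replicate 1.

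Of the VEGF receptors among the markers, Kdr passed an unadjusted p under 0.05 and Flt4 did not. Kdr (VEGFR2, chr5:75932827-75978458, minus strand, 30 exon blocks), whose promoter is printed above, was at 73.5, 78.8 and 86.9 normalized CPM in WT tumors and at 64.1, 44.7 and 47.6 in Nr2e3-/- tumors. The groups did not overlap, and Nr2e3-/- replicate 1 was the nearest to the WT tumors. The means were 79.7 ± 6.74 and 52.1 ± 10.4 CPM (SD, n = 3), with a log2 difference of -0.61 ± 0.16 (SE, edgeR adjusted p = 0.123) and a fold interval from 0.505 to 0.844. DESeq2 gave an adjusted p of 0.0207 and limma-voom one of 0.0180. Without Nr2e3-/- replicate 1 the log2 difference was -0.78 (edgeR adjusted p = 0.00696), and over all 13 alternative settings it ran from -0.78 to -0.51.

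Flt4 (VEGFR3, the receptor for VEGF-C and VEGF-D, chr11:49609263-49652739, plus strand, 30 exon blocks) was at 42.6, 85.7 and 40.3 normalized CPM in WT tumors and at 38.9, 39.8 and 33.1 in Nr2e3-/- tumors. WT replicate 2 was above every other library, and the remaining WT tumors lay just above the Nr2e3-/- tumors. The log2 difference was -0.59 ± 0.29 (SE, edgeR adjusted p = 0.281), with a fold interval from 0.413 to 1.07, and it was -0.61 (edgeR adjusted p = 0.232) without Nr2e3-/- replicate 1 and -0.15 without WT replicate 2. Angpt1 and the summed T and NK cell markers were also highest in WT replicate 2, at 4.64 and 7.34 normalized CPM. The T and NK sum was next highest in Nr2e3-/- replicate 2, at 5.09, where Flt4 was at 39.8. A link of either to the Flt4 level was not tested.

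Oit3, a secreted protein with a zona pellucida domain whose RNA within the liver is largely sinusoidal (chr10:59422958-59441778, minus strand, 9 exon blocks), was at 35.6, 38.1 and 42.2 normalized CPM in WT tumors and at 40.9, 27.5 and 28.0 in Nr2e3-/- tumors. Nr2e3-/- replicate 1 lay among the WT tumors and the other two below them all. Its log2 difference was -0.27 ± 0.17 (SE, edgeR adjusted p = 0.398) with all libraries, and -0.47 (edgeR adjusted p = 0.0260) without that replicate.

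**Figure D2:**
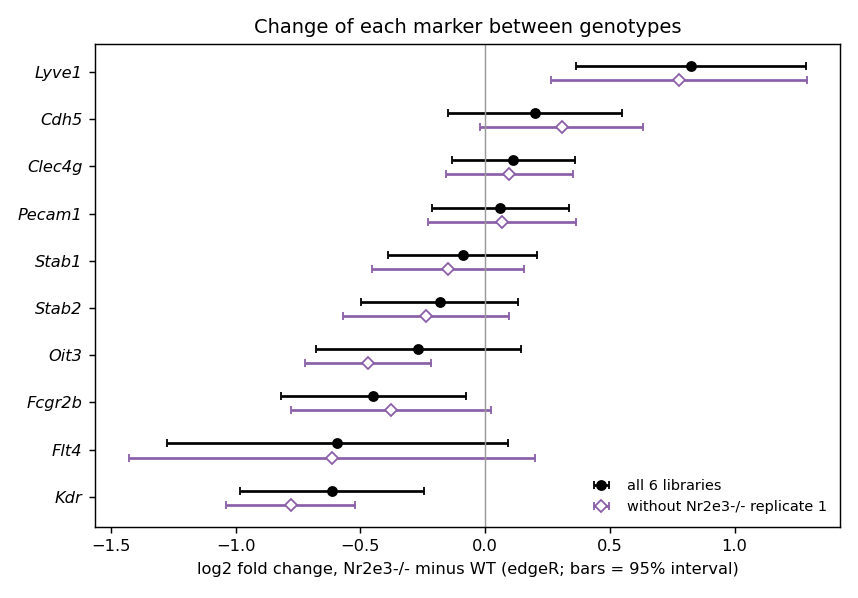
Log2 fold change of each marker, Nr2e3-/- minus WT (horizontal axis), fitted with edgeR on all 6 libraries (filled circles) and without Nr2e3-/- replicate 1 (open diamonds), with 95% intervals as bars. The intervals of Lyve1, Kdr and Fcgr2b leave out 0 with all libraries, and those of Lyve1, Kdr and Oit3 do so without that replicate.

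Across the 10 markers, the groups did not overlap for 5 (Lyve1, Kdr, Fcgr2b, Flt4 and Stab2), beside 26.8% of all genes tested. The smallest p-value that an exact permutation of 3 against 3 tumors can give is 0.1, which these 5 reached and which cannot pass 0.05. The median log2 difference of the markers was -0.14, against 0.0073 for all genes tested. The summed level of the 10 was 524 to 563 normalized CPM in WT tumors and 428 to 521 in Nr2e3-/- tumors. This sum was low in 1 tumor above all, since Nr2e3-/- replicate 3 held the lowest level of all 6 libraries for 5 of the 10 markers and the lowest of its group for 7. Without that replicate the median of the markers was -0.017.

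The spread among mice also differed from marker to marker. In WT tumors the coefficient of variation was 1.54% for Cdh5, 1.68% for Clec4g, 4.03% for Stab2 and 4.95% for Stab1. Coefficients from 3 libraries are imprecise and include counting error, so these low values do not show that the markers are constant among mice. The coefficient was 24.7% for Lyve1, where WT replicate 2 was low, and 45.4% for Flt4, where the same tumor was high. In Nr2e3-/- tumors the coefficients ran from 9.55% for Clec4g to 23.7% for Oit3. They were larger than in WT tumors for 8 of the 10 markers, all but Lyve1 and Flt4. Another measure of spread was taken over the genes tested. Chi-square per degree of freedom between pairs of libraries was 62.1 to 121.5 in Nr2e3-/- tumors and 34.7 to 44.9 in WT tumors. Such a chi-square grows with the counts of a gene, so it is not the same measure as the coefficient. The share of all genes with a larger coefficient in Nr2e3-/- tumors was not counted, and the difference in spread was not tested.

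Levels of different genes were compared per kilobase of exon, as normalized CPM divided by the GENCODE exon length in kilobases (RPKM). In WT tumors the order was Clec4g (21.2 RPKM), Oit3 (14.2), Kdr (13.5), Fcgr2b (12.5), Cdh5 (11.9), Stab2 (10.1), Stab1 (9.43), Flt4 (8.99), Pecam1 (8.52) and Lyve1 (8.13). Neighbours in this order overlapped over the 3 tumors except Clec4g above Oit3 and Cdh5 above Stab2, so most of the ranks are not separated by the spread between mice. Clec4g was also first in Nr2e3-/- tumors, at 22.9 ± 2.18 RPKM (SD, n = 3). Lyve1 went from the last place in WT tumors to the next place after Clec4g in Nr2e3-/- tumors, at 14.4 ± 1.46 RPKM, while Kdr went from place 3 to place 9 and Flt4 from place 8 to place 10, at 8.80 ± 1.76 and 5.96 ± 0.583 RPKM. Neighbours in the Nr2e3-/- order also overlapped except Clec4g above Lyve1 and Kdr above Flt4, so the places from Lyve1 to Kdr are not separated by the spread. The exon lengths are sums over all annotated exons and may differ from the transcripts present, which shifts a gene's place but not its difference between genotypes.

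The markers were next set against genes that endothelium of most kinds expresses, measured in the same library. The mean log2 CPM of 24 pan-endothelial genes was 3.64, 3.65 and 3.57 in WT tumors and 3.55, 3.44 and 3.29 in Nr2e3-/- tumors. It was lower in each Nr2e3-/- tumor than in any WT tumor, by 0.19 on average (exact permutation p = 0.1, two-sided). The summed CPM of the same 24 genes overlapped between the groups. It was 486 to 515 in WT tumors and 370 to 496 in Nr2e3-/- tumors (exact permutation p = 0.2). Relative to the mean log2 CPM of these genes in the same library, Lyve1 was 1.04 higher on the log2 scale in Nr2e3-/- tumors. Clec4g was 0.30 higher and Pecam1 0.25 higher, while the Kdr difference was -0.43. These 4 did not overlap between the groups (exact permutation p = 0.1 for each, the smallest possible), beside 31.0% of all genes on the same relative scale. The same 4 did not overlap when the summed CPM of the 24 genes was the reference, beside 27.4% of all genes. With 10 markers, 4 is near these backgrounds. Stab1 and Stab2 differed by 0.093 and -0.0015 relative to the mean and overlapped, as did Fcgr2b, Cdh5, Flt4 and Oit3. For Fcgr2b, whose levels did not overlap in themselves, the relative difference was -0.27 (exact permutation p = 0.3).

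**Figure D3:**
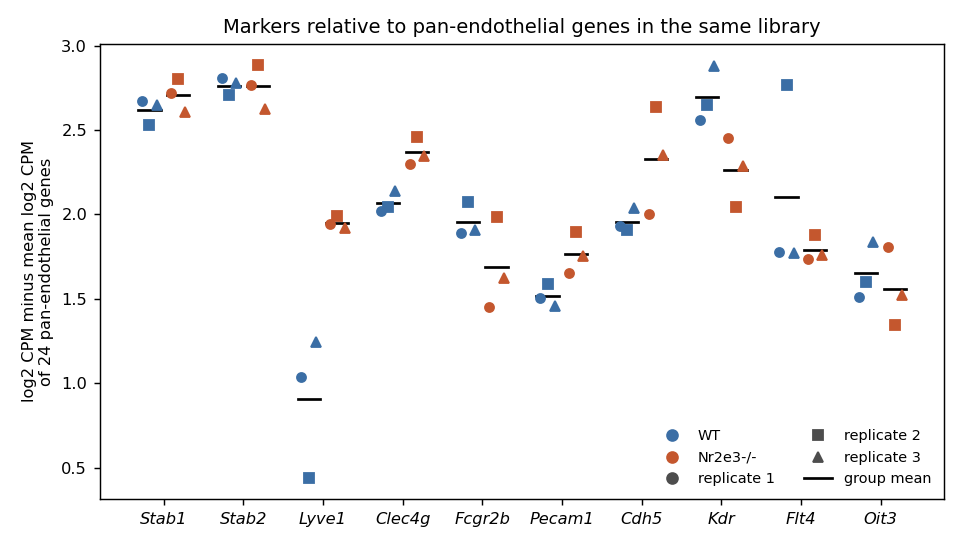
Level of each marker relative to the mean of 24 pan-endothelial genes of the same library (log2 CPM minus mean log2 CPM, vertical axis, not starting at 0), with blue for WT, orange for Nr2e3-/-, a symbol shape for each replicate and lines for group means. The 3 Nr2e3-/- values of Lyve1, near 1.95, lie above all WT values, and those of Kdr lie below them.

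Among the 24 pan-endothelial genes themselves, 2 were higher and 4 lower in Nr2e3-/- tumors at an unadjusted p under 0.05. The background, here and for the lists below, was 11.8% of all genes tested higher and 9.72% lower. A log2 difference below 0 was found for 19 of the 24, beside 6682 of 13572 genes tested, and their median was -0.25. The higher ones were Cd93, an endothelial C-type lectin, and Nos3, the endothelial nitric oxide synthase, with log2 differences of 0.75 and 0.68. The lower ones were the endothelial transcription factor Erg (-0.77), the sialomucin Emcn (-0.62), Myct1 (-0.49) and Mmrn2 (-0.32). After adjustment 0 of the 24 passed. Without Nr2e3-/- replicate 1, 2 were called higher (Cd93 and Nos3) and 5 lower (Erg, Emcn, Mmrn2, Eng and Ptprb) by edgeR.

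Of 18 further sinusoidal genes, 17 were tested, with 1 higher and 3 lower at an unadjusted p under 0.05, 0 after adjustment and a median of -0.10. Bmp6, the ligand by which sinusoidal endothelium instructs hepatocytes to make hepcidin, was at 6.22, 8.12 and 7.98 normalized CPM in WT tumors and at 4.44, 2.60 and 4.002 in Nr2e3-/- tumors. The groups did not overlap, with a log2 difference of -1.03 ± 0.24 (SE, edgeR adjusted p = 0.109). Ushbp1 had a difference of -0.78 and Gata4, the transcription factor that sets sinusoidal identity, one of -0.30 (edgeR adjusted p = 0.102 and 0.232). The orphan receptor Gpr182 was higher, by 0.31 (edgeR adjusted p = 0.156), in the same direction as Lyve1. When Nr2e3-/- replicate 1 was left out, 3 were called lower, Bmp6, Ushbp1 and Ehd3, with edgeR adjusted p-values of 0.0202, 0.00661 and 0.0177.

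The ligands of Kdr and Flt4 were measured in the same tumors. Vegfa, the ligand of Kdr and Flt1, was at 126, 134 and 147 normalized CPM in WT tumors and at 112, 78.3 and 77.8 in Nr2e3-/- tumors. These groups were separate too, with Nr2e3-/- replicate 1 nearest to WT as for Kdr. The log2 difference was -0.60 ± 0.17 (SE, edgeR adjusted p = 0.130), and -0.79 (edgeR adjusted p = 0.00667) without Nr2e3-/- replicate 1. Vegfb, a ligand of Flt1, was at 15.7, 14.01 and 16.6 in WT tumors and at 11.6, 10.3 and 13.3 in Nr2e3-/- tumors, a difference of -0.40 (edgeR adjusted p = 0.179). The ligands of Flt4 gave differences of -0.024 for Vegfc, at 2.54 to 4.40 CPM, and -1.05 for Vegfd, at 0.446 to 2.08 CPM (edgeR adjusted p = 0.965 and 0.243). That of Vegfd was -1.60 without Nr2e3-/- replicate 1 (edgeR adjusted p = 0.0361). Pgf was at 0 to 7 counts and was not tested. Of the 4 ligands tested, 0 were higher and 2 lower at an unadjusted p under 0.05.

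The remaining VEGF receptor and the coreceptors differed from Kdr and Flt4. Flt1, the decoy receptor VEGFR1, had a log2 difference of 0.21 (edgeR adjusted p = 0.361), and Nrp2, the coreceptor of Flt4, one of 0.012 (adjusted p = 0.959). Nrp1, the coreceptor of Kdr, was at 104, 126 and 110 normalized CPM in WT tumors and at 128, 537 and 457 in Nr2e3-/- tumors. Nr2e3-/- replicate 1 was at the level of WT replicate 2 and the other two were far above, for a log2 difference of 1.72 ± 0.47 (SE, edgeR adjusted p = 0.130), and 2.14 (edgeR adjusted p = 0.00125) without that replicate. Nrp1 is not specific to endothelium. Of the angiopoietins, which act on the endothelial receptor Tek, Angpt1 had a difference of -1.47 and Angpt2 one of 0.74 (edgeR adjusted p = 0.209 and 0.223), the former set largely by WT replicate 2. Tek itself was at 19.1, 21.2 and 18.9 in WT tumors and at 18.7, 16.7 and 14.3 in Nr2e3-/- tumors (log2 difference -0.25, edgeR adjusted p = 0.307).

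**Figure D4:**
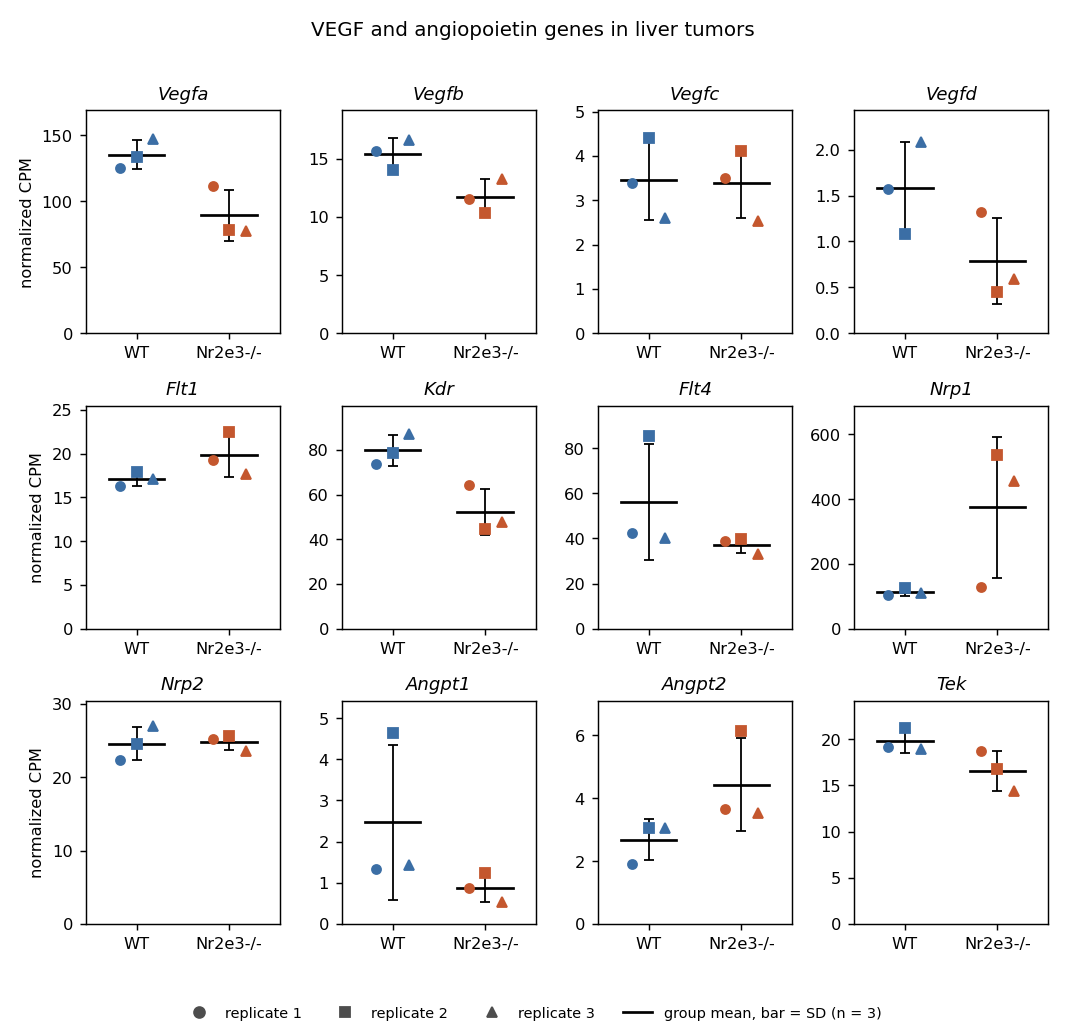
Levels of VEGF ligands, VEGF receptors and coreceptors, angiopoietins and their receptor Tek in every tumor (normalized CPM, vertical axes from 0), with blue for WT and orange for Nr2e3-/-. Symbols are libraries, lines are means and bars are SD (n = 3). Vegfa and Kdr are lower in all 3 Nr2e3-/- tumors, and Nrp1 is far higher in replicates 2 and 3 and at the WT level in replicate 1.

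Capillarization is usually read from a gain of genes of continuous or large-vessel endothelium. Of 13 such genes, 12 were tested, with 2 higher and 1 lower at an unadjusted p under 0.05, 0 after adjustment and a median of 0.10. The basement membrane chain Col4a1 was at 79.7, 86.6 and 57.8 normalized CPM in WT tumors and at 93.3, 188 and 115 in Nr2e3-/- tumors (log2 difference 0.82, edgeR adjusted p = 0.168). The groups did not overlap. Selp, the adhesion receptor P-selectin, had a difference of 1.10 and Lamb1, a laminin chain, one of -0.60 (edgeR adjusted p = 0.213 and 0.187). Both overlapped between the groups, and Selp rested on Nr2e3-/- replicate 2, at 22.4 CPM against 6.09 and 9.52 in the other two, with a lowest difference of 0.40 over the alternative settings. Leaving out Nr2e3-/- replicate 1, edgeR called Col4a1 (1.03, adjusted p = 0.0318) and Selp (1.44, adjusted p = 0.0289) higher and Lamb1 (-0.85, adjusted p = 0.0152) lower. Vwf, at 6.16 to 8.15 in WT and 7.02 to 8.92 in Nr2e3-/- tumors, and Cd34, at 2.81 to 5.72 and 2.97 to 5.03, overlapped between the groups. Of 7 genes of the central vein side, 1 was higher, Thbd, or thrombomodulin (log2 difference 1.79, edgeR adjusted p = 0.165), at 45.1 and 23.2 CPM in Nr2e3-/- replicates 2 and 3 against 5.34 to 9.56 elsewhere. Of 7 genes of the portal side, 1 was lower, Ltbp4 (-0.56, edgeR adjusted p = 0.226). These were, without Nr2e3-/- replicate 1, 2.24 for Thbd and -0.88 for Ltbp4 (edgeR adjusted p = 0.00823 and 0.00362).

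**Figure D5:**
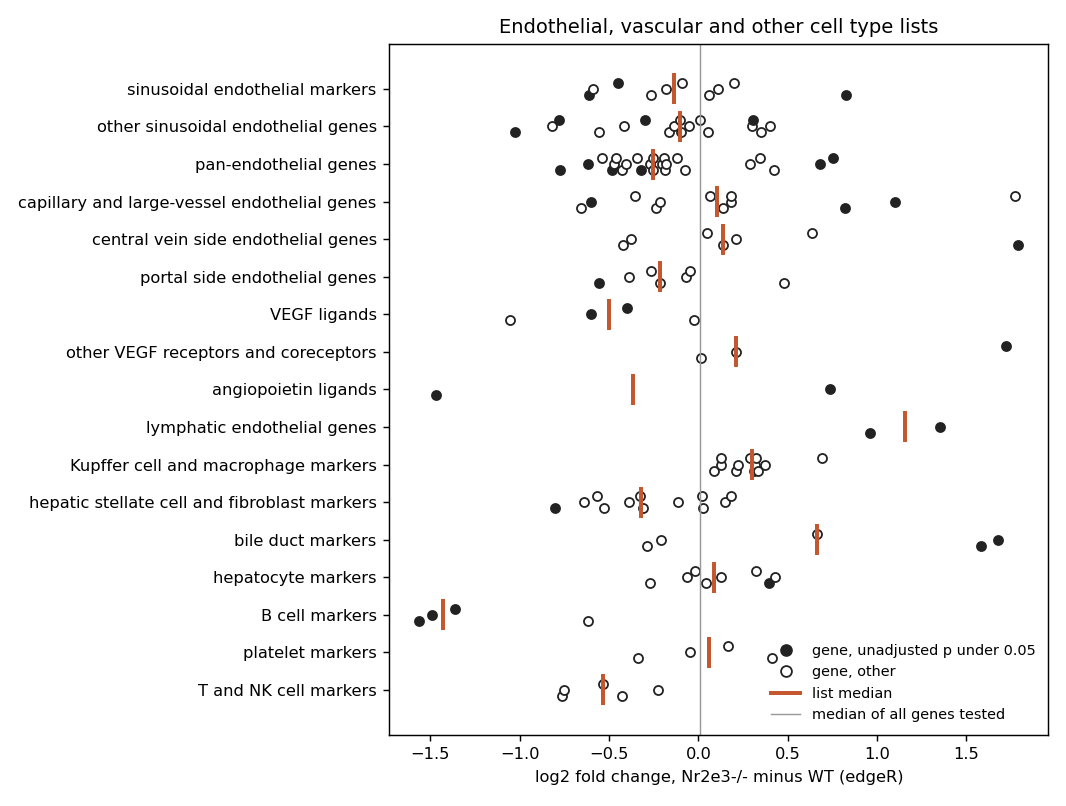
Log2 fold change (horizontal axis, Nr2e3-/- minus WT, edgeR) of each tested gene of the marker list and of 16 other lists (rows). Filled points have an unadjusted p under 0.05, orange bars are list medians and the grey line is the median of all genes tested, 0.0073. The median of the sinusoidal markers, -0.14, lies between those of the other sinusoidal genes, -0.10, and the pan-endothelial genes, -0.25.

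Because Lyve1 and Flt4 are also lymphatic genes, and Lyve1 and Stab1 are also made by some macrophages, lists of those cells are given beside them. Of 4 lymphatic endothelial genes, Ccl21a had 0 counts in every library, Pdpn had 4 to 12 counts and was not tested, and Mmrn1 was at most at 1.14 normalized CPM, though 1.35 higher in Nr2e3-/- tumors on the log2 scale (edgeR adjusted p = 0.174). Prox1, a lymphatic regulator that hepatocytes also express, was at 43.4, 54.9 and 54.2 in WT tumors and at 80.4, 79.0 and 137 in Nr2e3-/- tumors (log2 difference 0.96, edgeR adjusted p = 0.113), and the difference was 1.09 (edgeR adjusted p = 0.0218) without Nr2e3-/- replicate 1. Lyve1, Prox1 and Mmrn1 were each higher in Nr2e3-/- tumors, with groups that did not overlap, and Mmrn1 rested on 5 to 21 counts per library. Flt4 went the other way. The part of lymphatic RNA in the Lyve1 and Flt4 levels was not tested. The summed level of the 4 lymphatic genes was 44.1 to 55.5 CPM in WT tumors and 79.8 to 138 in Nr2e3-/- tumors, nearly all of it Prox1.

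Of 12 Kupffer cell and macrophage markers, 0 passed an unadjusted p under 0.05. All 12 had a log2 difference above 0, beside 6890 of 13572 genes tested, and their median was 0.30. Their summed level was 458 to 577 normalized CPM in WT tumors and 400, 990 and 526 in Nr2e3-/- tumors. Lyve1 was highest in Nr2e3-/- replicate 1, where the macrophage sum was lowest of all 6 libraries. Clec4g, Pecam1 and Cdh5 were highest in Nr2e3-/- replicate 2, where that sum was highest, and Stab1 was highest in WT replicate 1. The part of macrophage RNA in these levels was not tested.

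For the other cells of the tumors, the lists gave these values. Of 12 stellate cell and fibroblast markers, 1 was lower, Hhip, at an unadjusted p under 0.05, the median was -0.32 and the summed level was 381 to 466 CPM in WT tumors and 240 to 423 in Nr2e3-/- tumors. Leaving out Nr2e3-/- replicate 1, 6 of the 12 were lower at that threshold and edgeR called 4, Col1a2, Col3a1, Dcn and Reln, with log2 differences of -1.04, -1.11, -0.59 and -0.91, and limma-voom on all libraries also gave 6 lower with 4 called. Over all genes, 2466 of 13840 were lower and 1335 were called lower without that replicate. With limma-voom, 2433 of 13572 were lower and 1073 were called lower. Of 5 bile duct markers tested, 2 were higher, Epcam and Spp1, with log2 differences of 1.58 and 1.68, and the summed level was 57.3 to 119 and 69.1 to 429 CPM. Both were called without Nr2e3-/- replicate 1, at 2.02 and 2.13 (edgeR adjusted p = 0.00808 and 0.0266). Of 8 hepatocyte markers, 1 was higher, Serpina1c (0.39). The platelet list, with 4 tested, and the T and NK cell list, with 5, had 0 genes past an unadjusted p under 0.05 in either direction. None of these lists had a gene past the adjusted threshold in edgeR with all libraries, and their part in the marker levels was not tested.

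The markers did not share 1 pattern across the tumors. Deviations from their mean pattern, as the root mean square of log2 CPM over the 6 libraries, were 0.068 for Stab1, 0.084 for Stab2, 0.10 for Pecam1 and 0.11 for Clec4g, and 0.31 for Kdr, 0.39 for Flt4 and 0.53 for Lyve1. The first 4 thus lay closest to the list mean, and Kdr, Flt4 and Lyve1 lay farthest from it. The mean includes each marker and was nearly flat. A gene that varied little, on or off the list, therefore lies near it by construction. The mean pattern itself was flat but for Nr2e3-/- replicate 3, at -0.22 on the log2 scale against 0.018 to 0.088 in the other libraries. Outside the list, the 5 genes most like this mean pattern among 12280 with at least 1 CPM on average were Dph6, Lnx2, Grk5, Ciz1 and Shkbp1, whose root mean square differences were 0.035 to 0.041 on the log2 scale over the 6 libraries.

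Several markers share their locus with other annotated genes, and whether counting used the strand is not given in the sources used here. Stab1 overlaps the protein-coding gene Nt5dc2 on the opposite strand, and Stab2, Clec4g, Fcgr2b and Cdh5 overlap annotated antisense genes, so part of their counts could come from those. Lyve1, Kdr, Flt4, Pecam1 and Oit3 have no overlapping gene in the annotation.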

How the data were processed

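The genotype label of each tumor set its group, 3 WT and 3 Nr2e3-/- mice, and the DEN regimen is that of the study's methods. Per the labels and methods, the authors isolated RNA with a miRvana kit, made TruSeq libraries, mapped the single-end reads with TopHat (mm10) and used featureCounts for counting, and the deposited values used here are raw counts per gene. The submitters' processing notes also name DESeq, Bowtie2 2.4.5 and SAMtools 1.14. A normalized table and a table of the authors' own comparison (fold changes and p-values) were not used.

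Genes were filtered with filterByExpr (minimum count 10, minimum total 15), scaled by TMM and tested with the two-sided quasi-likelihood F test of edgeR 4.0.16 in R 4.3.3, with calls at a Benjamini-Hochberg adjusted p under 0.05 over 13572 genes. Normalized CPM are counts per 1000000 of the TMM-scaled library size, log2 CPM used a prior count of 2, and 3 counts were taken as the limit that a count of 0 allows. Such limits cover counting error only. Libraries came from separate mice. Alternatives were RLE and upper quartile scaling, DESeq2 1.42.0, limma-voom 3.58.1 with sample quality weights, other count filters, the replicate number as a block, and leaving out each library. The step was tested on simulated data of 3 against 3 libraries and 13416 genes, where edgeR found 46% of the 100 genes given a log2 change of 1 and 95% of the 100 given one of 2, with 14 false calls. DESeq2 found 72% and 98%, with 51 false calls, and limma-voom 41% and 93%, with 12. The simulated libraries of a group shared the same means, so none stood apart as Nr2e3-/- replicate 1 did. These rates therefore need not hold for the tumors. Tables and figures used Python 3.11.15, pandas 2.3.3, scipy 1.17.1 and matplotlib 3.10.9. Positions and exon lengths are from GENCODE on GRCm38.

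The members and the 16 other lists, 136 genes written by hand, were chosen with earlier results of these data known. All members are named. Genes of other lists are named if their unadjusted p was under 0.05 or if they are VEGF ligands, receptors or coreceptors, angiopoietins or defining markers. Tek, Vwf, Cd34, Eng, Ptprb, Ehd3, Col1a2, Col3a1, Dcn and Reln were added after their values were seen, and 1 further listed gene is not reported here. The 5 genes nearest to the mean pattern of the members are also named.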

Additional observations from a re-analysis of the deposited data

How the results depend on the processing

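All 10 markers kept the direction of their difference under 13 alternative settings except Stab1, which ran from -0.15 to 0.022 on the log2 scale when single libraries were left out (above 0 without Nr2e3-/- replicate 3), and Pecam1, at -0.025 with upper quartile scaling, -0.021 with limma-voom and -0.010 to 0.14 with single libraries left out (below 0 without Nr2e3-/- replicate 2). The number of markers called was 0 with all libraries in edgeR, 2 with DESeq2, 3 with limma-voom and 0 to 3 when single libraries were left out, reaching 3 without Nr2e3-/- replicate 1. Markers at an unadjusted p under 0.05 numbered 3, 5 with limma-voom and 2 to 4 when single libraries were left out. The background rose as well. Of all 13572 genes, limma-voom had 2548 higher and 2433 lower past that threshold, against 1597 and 1319 in edgeR with all libraries. The median log2 difference of the markers was -0.28 with limma-voom and -0.19 to -0.017 with single libraries left out, the latter without Nr2e3-/- replicate 3. Genes called over the whole table numbered 13, and 8 with upper quartile scaling, 1095 with DESeq2, 2360 with limma-voom, 70 without a filter beyond 1 count, 7 with at least 10 counts in every library, and 0 to 3022 with single libraries left out, reaching 3022 without Nr2e3-/- replicate 1. The cause of these shifts was not tested. Replicate numbers did not pair the tumors, with correlations of -0.08, 0.22 and 0.02 between same-numbered samples, and with the replicate number as a block 0 genes and 0 markers were called, with 2438 genes and 3 markers at an unadjusted p under 0.05. Without Nr2e3-/- replicate 1, a setting added for the other lists after the data were seen, pan-endothelial genes past an unadjusted p under 0.05 numbered 12 of 24 and further sinusoidal genes 8 of 18. Of all 13840 genes tested in that setting, 2754 were higher and 2466 lower at the same threshold, so these counts rose along with the background. Whether differences as small as those of Stab1, Clec4g, Pecam1 and Cdh5 could be detected with 3 tumors a group was not tested.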
